A study of Mus musculus with 4 samples.

Results

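The 6 genes described here encode the platelet-derived growth factor (PDGF) family: the ligands Pdgfa, Pdgfb, Pdgfc and Pdgfd and the receptors Pdgfra and Pdgfrb. They were taken by symbol from the 53703 features of each single-cell matrix, and all 6 were found. Their mRNA was read out in droplet-based single-cell RNA sequencing of non-hematopoietic cells from the dissected metaphysis of mouse femur and tibia at 12 weeks of age. Mutants (Lats2iΔEC, genotype label Lats2iECKO) carried loxP-flanked Lats2, the gene of a Hippo pathway kinase, together with the tamoxifen-inducible Cdh5(PAC)-CreERT2 transgene, whose promoter is active in endothelial cells (ECs). Controls were littermates without Cre, and both groups received tamoxifen during juvenile growth and carried the background of a Cdh5(PAC)-mT/nG reporter. There were 2 libraries per group, described by the study as biological replicates. Cells of the blood lineages had been depleted with antibody-coupled beads before the libraries were made. The comparison asks how loss of endothelial Lats2 is accompanied by changes in PDGF ligands on the vascular side and PDGF receptors on the mural and stromal side.

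PDGF ligands are secreted as disulfide-linked dimers. PDGF-A and PDGF-C act mainly through PDGFRα, PDGF-D mainly through PDGFRβ, and PDGF-B through both receptors. PDGF-C and PDGF-D are held inactive by an N-terminal CUB domain until a protease such as plasminogen activator removes it, whereas PDGF-A and PDGF-B are cut inside the cell by furin-type convertases. In growing vessels, PDGF-B from endothelial tip cells is retained by heparan sulfate at the vessel wall and recruits PDGFRβ-positive pericytes. In bone marrow, both receptors mark leptin receptor-positive reticular stromal cells, and PDGFRα signalling in these cells has been tied to marrow fibrosis.

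RefSeq promoter windows (300 bases, 250 before and 50 after the annotated start, assembly GRCm38.p6) matched 4 of the 6 members by symbol, with 2 windows for Pdgfa and 1 each for Pdgfc, Pdgfd and Pdgfra. Those of Pdgfc, Pdgfd and Pdgfra are shown because these genes differed most between genotypes in metaphyseal reticular cells in the main fit: the first 2 were lower and the third higher in the mutants. The call of Pdgfc was lost when each cell was gated by itself. The windows were searched on both strands for GGAATG, the core that TEAD factors bind. TEADs carry YAP and TAZ, the proteins that LATS kinases restrain, to DNA. The Cre transgene is endothelial, and Lats2 itself was not called in metaphyseal reticular cells (log2 fold change 0.06 ± 0.13 SE, edgeR adjusted p = 0.797). Whether TEADs act on these genes in those cells was not tested. Capitals mark a match, read as GGAATG or, on the other strand, CATTCC.
Pdgfc, chr3:81036166-81036465, plus strand: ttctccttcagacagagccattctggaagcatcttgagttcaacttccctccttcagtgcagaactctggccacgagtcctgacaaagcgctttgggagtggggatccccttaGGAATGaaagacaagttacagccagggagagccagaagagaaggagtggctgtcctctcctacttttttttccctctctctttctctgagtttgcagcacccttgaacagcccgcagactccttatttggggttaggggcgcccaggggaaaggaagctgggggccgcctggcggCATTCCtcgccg
Pdgfd, chr9:6168236-6168535, plus strand: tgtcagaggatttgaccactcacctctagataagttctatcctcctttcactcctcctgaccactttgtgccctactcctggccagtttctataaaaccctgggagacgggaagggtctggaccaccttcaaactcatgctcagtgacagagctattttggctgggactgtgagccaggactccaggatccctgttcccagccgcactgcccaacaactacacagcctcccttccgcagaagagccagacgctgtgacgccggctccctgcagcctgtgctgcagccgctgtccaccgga
Pdgfra, chr5:75152001-75152300, plus strand: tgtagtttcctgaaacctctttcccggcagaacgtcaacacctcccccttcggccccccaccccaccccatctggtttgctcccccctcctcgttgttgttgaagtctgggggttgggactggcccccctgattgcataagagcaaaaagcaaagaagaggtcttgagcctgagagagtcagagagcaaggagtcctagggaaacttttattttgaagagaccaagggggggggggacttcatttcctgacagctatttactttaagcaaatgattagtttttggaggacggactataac
The Pdgfc window held 2 matches, starting 137 bases before and 38 bases after the transcript start. Neither the Pdgfd and Pdgfra windows nor the 2 Pdgfa windows (chr5:138994232-138994531 and chr5:138994895-138995194, minus strand) held these letters, which 14.7% of all 32851 windows did. G and C made up 55.0% of the bases in the Pdgfc window, 56.7% in that of Pdgfd, 51.0% in that of Pdgfra and 67.0% and 73.3% in those of Pdgfa, beside a median of 52.7% over all windows.

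The libraries held 69636600 to 85899079 UMIs. Of 28037 barcodes with at least 1000 UMIs and 800 genes, 24829 also passed limits on mitochondrial and hemoglobin reads and on complexity, and 20974 of these were assigned to 6 main classes by markers that include no PDGF gene. Between 7 and 16 barcodes were shared by any pair of libraries, where random draws would share 4.5 to 6.95. The label check held over all ECs. Cre-ERT2 was at 53.5 and 47.9 counts-per-million (CPM) in the mutants against 0.647 and 0.828 in the controls, and Lats2 was at 90.7 and 96.7 against 133 and 123 CPM (log2 fold change −0.38 ± 0.07 SE, edgeR quasi-likelihood, Benjamini-Hochberg adjusted p = 0.000585). By subtype Lats2 was called lower in arterial and capillary ECs (−0.58 ± 0.13 and −0.39 ± 0.12), and not in Vwf/Fmo2 (−0.25 ± 0.21), sinusoidal (0.00 ± 0.17, adjusted p = 0.994) or tip-like ECs (0.04 ± 0.40, adjusted p = 0.978). Cre-ERT2 was at 49.1 and 24.1 CPM in mutant sinusoidal and 100.7 and 73.4 CPM in mutant tip-like ECs, against 0 UMIs in control sinusoidal ECs (up to 2.00 and 1.78 CPM for 3 counts) and 1 UMI in each control tip-like sum.

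On the mouse assembly GRCm39, with gene bounds from GENCODE M39, Pdgfa lies on chromosome 5 from 138961758 to 138983435 on the minus strand and Pdgfra on the same chromosome from 75311994 to 75358876 on the plus strand. Pdgfb lies on chromosome 15 from 79880009 to 79899181 (minus strand), Pdgfc on chromosome 3 from 80943668 to 81121473 (plus), Pdgfd on chromosome 9 from 6168240 to 6379265 (plus) and Pdgfrb on chromosome 18 from 61178212 to 61218133 (plus). The values below count unique molecular identifiers (UMIs) over whole genes, introns included.

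All levels below are CPM of the UMIs summed over the cells of 1 class in 1 library, and the 4 values are always mutant 1, mutant 2, control 1 and control 2. Levels are compared between cells, never between genes, and a class sum cannot tell fewer expressing cells from less RNA per cell. Differences are log2 fold changes, mutant against control, ± SE from edgeR, called at an adjusted p of 0.05 or less over all genes tested in that class. With 2 libraries a group an exact permutation test cannot go below p = 0.333, so each call rests on the spread edgeR shares across genes. Calls were also frequent: 61.2% of the genes tested in ECs, 47.4% in mural cells, 48.4% in reticular stromal cells, 12.4% in osteoblasts, 65.3% in chondrocytes and 5.19% in fibroblasts were called, so that a call alone does not set a member apart from other genes.

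The ligands differed in their distribution over the main classes. Pdgfb was nearly confined to endothelium among the 6 main classes, at 245, 232, 215 and 204 CPM in ECs, while mural cells, the next class, held 15.4, 11.9, 30.5 and 23.1 CPM and no library exceeded 3.10 CPM in reticular cells, osteoblasts, chondrocytes or fibroblasts. The step from ECs to mural cells was 3.44 ± 0.28 on the log2 scale (edgeR with library as a block, adjusted p = 0.000188). Pdgfd, the other ligand high in ECs, stood at 614, 557, 534 and 518 CPM there. It was also abundant in osteoblasts (243, 265, 410 and 372 CPM), was intermediate in mural and reticular cells, and did not exceed 16.5 CPM in chondrocytes or fibroblasts.

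Pdgfa was highest in mural cells at 330, 275, 307 and 363 CPM, followed by osteoblasts at 116, 103, 87.7 and 93.6 CPM. Fibroblasts, reticular cells, ECs and chondrocytes followed in that order, and the last step, from ECs to chondrocytes, was not called (0.08 ± 0.13, edgeR adjusted p = 0.62). Pdgfc came from osteoblasts (82.1, 109, 105 and 96.0 CPM) and fibroblasts (73.3, 84.7, 95.02 and 96.2 CPM), with metaphyseal reticular cells and the mural cells that express Myh11 and Cnn1 next, which did not differ by the test (−0.10 ± 0.27 in the fit, edgeR adjusted p = 0.766). In ECs it reached at most 2.15 CPM, from 3 to 13 UMIs a library. Of 64 steps between neighbouring classes tested for the 6 genes, 44 were called, beside 50.2% of all gene tests in those pairs. CPM and the fit, which scales the sums by TMM factors, differ where osteoblasts are one side, and the reason was not tested. ECs held more Pdgfd than osteoblasts by CPM, but the fitted difference was 0.00 ± 0.22 (edgeR adjusted p = 0.999).

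Both receptors were stromal. Pdgfrb was highest in mural cells (751, 791, 510 and 484 CPM) and reticular stromal cells (577, 622, 565 and 548 CPM), and the step between them was not called (0.31 ± 0.13, edgeR adjusted p = 0.0901). Fibroblasts held 52.4, 74.4, 60.5 and 65.6 CPM, and the step down to them from reticular cells was 2.82 ± 0.09 (adjusted p = 8.96e-09). Pdgfra was highest in reticular cells (336, 348, 324 and 308 CPM), then in osteoblasts (159, 167, 168 and 152 CPM) and fibroblasts (131, 144, 168 and 155 CPM). The fitted step between reticular cells and osteoblasts was not called (0.14 ± 0.09, adjusted p = 0.176).

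**Figure D1:**
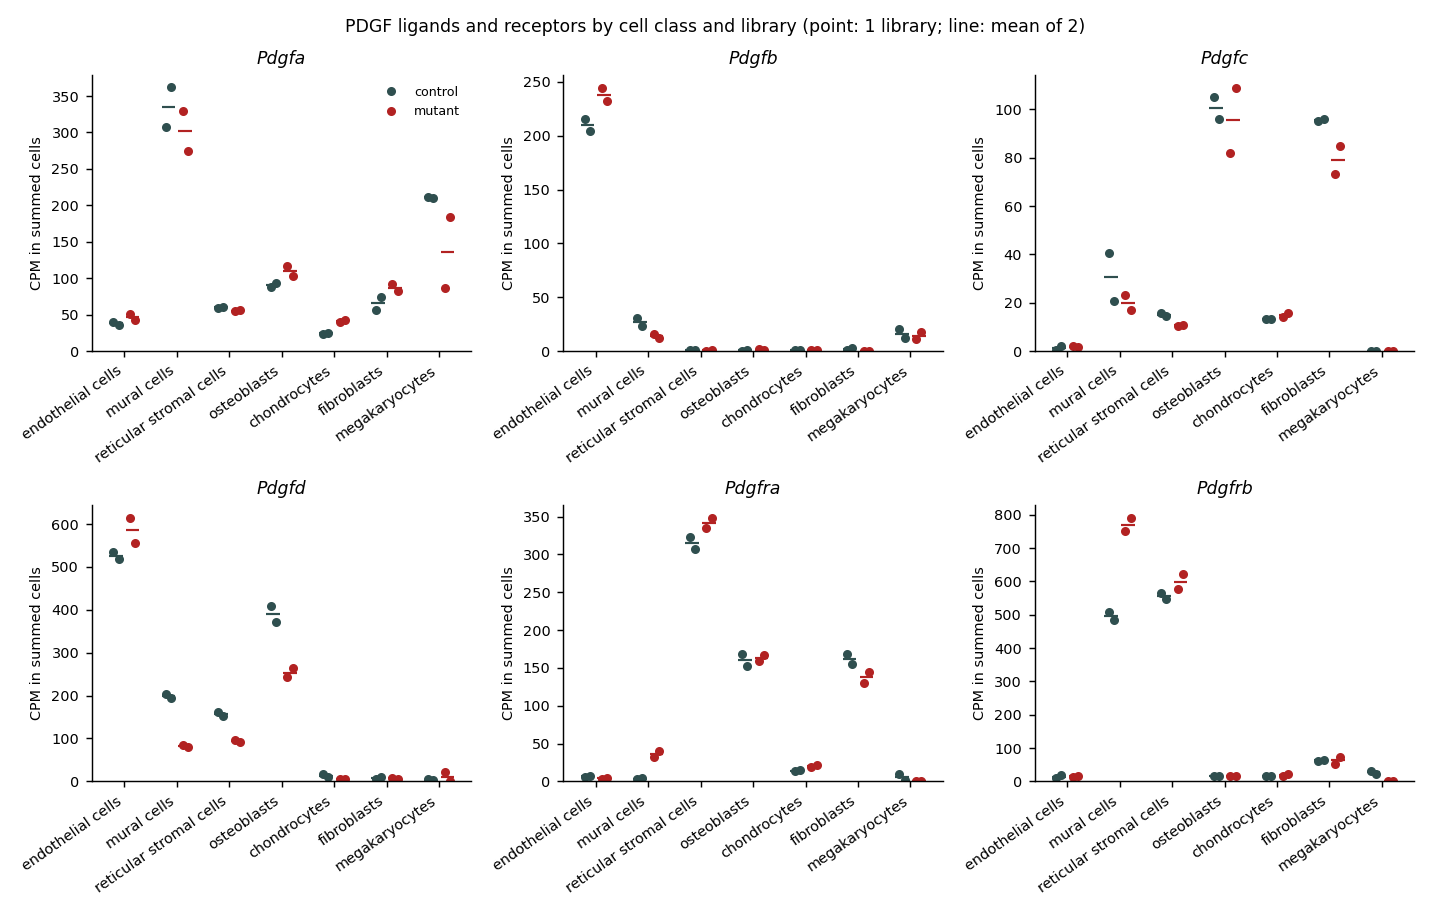
Level of each member (CPM of summed UMIs, y axis, linear from 0) in 7 cell classes (x axis); a point is 1 library, a line the mean of the 2 libraries of a group, dark for control and red for mutant. Pdgfb stands out in endothelial cells only, Pdgfd is lower in the mutants in mural, reticular and osteoblast classes, and Pdgfrb is higher in mutant mural cells (751 and 791 against 510 and 484 CPM).

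In ECs taken as 1 class, the 3 ligands they express were slightly higher in the mutants. Pdgfb differed by 0.25 ± 0.07 (edgeR adjusted p = 0.0079). Pdgfd differed by 0.22 ± 0.06 (adjusted p = 0.00607). Pdgfa, at 51.2, 42.5, 39.6 and 36.1 CPM, differed by 0.36 ± 0.11 (adjusted p = 0.0122). It passed the filter through the mutants only (a UMI in 22.69% of mutant and 17.85% of control ECs) and gave 0.39 in the unfiltered fit (adjusted p = 0.0242). All 3 calls depended on mutant library 1: without it the differences were 0.22 for Pdgfb (adjusted p = 0.0701), 0.15 for Pdgfd (0.0955) and 0.24 for Pdgfa (0.115). Pdgfc lay below the count filter, with 0.58 ± 0.54 in the unfiltered fit (adjusted p = 0.6), in which 17.1% of genes were called.

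The mutant ECs also had another mix of subtypes. Tip-like ECs, gated on Apln, Kcne3, Trp53i11, Pgf and Nid2, made up 10.5% and 13.1% of mutant ECs (58 and 92 cells) against 2.55% and 1.77% of control ECs (22 and 15 cells). Had every subtype kept its control level, the mutants' mix alone would give a mean of 224 CPM for Pdgfb, where 210 CPM was measured in controls and 238 in mutants. For Pdgfd the mix would give 519 CPM, against 526 measured in controls and 585 in mutants. The corresponding values for Pdgfa were 44.0, 37.9 and 46.9 CPM.

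Among EC subtypes, Pdgfb and Pdgfd were distributed differently. Pdgfb was highest in tip-like ECs (396, 375, 247 and 392 CPM), arterial ECs (276, 266, 343 and 273 CPM) and Ramp3-marked metaphyseal capillary ECs (293, 284, 227 and 266 CPM), and these 3 neighbours did not differ beyond their spread (edgeR adjusted p = 0.459 and 0.298). Sinusoidal ECs were lower at 146, 133, 81.5 and 100.7 CPM, a step of 1.19 ± 0.11 below capillary ECs (adjusted p = 1.71e-05), and the step from them to ECs marked by Vwf and Fmo2 was not called (−0.04 ± 0.22, adjusted p = 0.913), with means of 139 against 98.0 CPM in mutants and 91.1 against 129 CPM in controls. Pdgfd was highest in arterial ECs at 1184, 1176, 1159 and 1116 CPM, 1.18 ± 0.07 above capillary ECs (adjusted p = 2.32e-06). It was lowest in sinusoidal ECs at 149, 159, 161 and 180 CPM. Pdgfa was also high in arterial ECs, at 85.9, 79.7, 69.9 and 80.7 CPM.

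Within subtypes, 2 calls were made among members past the filter. Sinusoidal ECs, where 19.3% of genes were called, held more Pdgfb in the mutants by 0.67 ± 0.16 (edgeR adjusted p = 0.00687). The call was lost without control library 1 (0.53, adjusted p = 0.118), in DESeq2 (adjusted p = 0.0773) and when cells were gated singly (0.41, adjusted p = 0.134). Tip-like ECs, where 3.87% of genes were called, held more Pdgfd in the mutants, at 604 and 576 CPM against 304 and 151 CPM, or 1.30 ± 0.28 (adjusted p = 0.0286). The control values come from 64 and 10 UMIs in 22 and 15 cells. The 9 reticular markers in these cells summed to 2575, 1869, 980 and 919 CPM, with 0 to 4 of them at 0 in a library, and moved with Pdgfd. Esm1, a member of that list, was also among the genes that led tip-like ECs by fold over the other EC subtypes. The sum therefore need not come from reticular RNA. The 6 osteoblast markers (92.9, 79.7, 523 and 633 CPM, 0 to 3 at 0) and the 9 mural markers (73.3, 188, 495 and 286 CPM, 0 to 5 at 0) moved the other way. Their part in the Pdgfd difference was not tested. Leaving out mutant library 1 or 2 moved the adjusted p to 0.147 or 0.0766 with differences of 1.36 and 1.43, DESeq2 gave 0.0886, and removing called doublets gave 1.01 with 0.064. Below the filter, the unfiltered fit also called Pdgfrb in sinusoidal ECs (14.3, 45.5, 5.35 and 14.8 CPM, 1.56 ± 0.37, adjusted p = 0.000911, 6.83% of genes called), where the groups overlap, and Pdgfra in capillary ECs (0, 1, 8 and 19 UMIs, adjusted p = 0.000324, 11.9% of genes called). The 9 reticular markers in sinusoidal ECs, at 1314, 1496, 775 and 949 CPM with at most 1 at 0, moved with Pdgfrb, and their part was not tested.

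Arterial, capillary and Vwf/Fmo2 ECs, in which 26.7%, 33% and 7% of genes were called, gave no call among members past the filter, and Pdgfd in arterial ECs differed by 0.12 ± 0.07 (edgeR adjusted p = 0.2). The test of the difference itself, each subtype against the mean of the other subtypes in 1 fit, gave 1.27 ± 0.20 for Pdgfd in tip-like ECs (adjusted p = 0.00154), where 3.8% of genes were called. Leaving out any 1 of the 4 libraries gave differences from 0.97 to 2.08, in runs that share the few control tip-like cells described above. No other ligand effect differed between subtypes by this test. For Pdgfb the difference was 0.61 ± 0.21 in sinusoidal ECs (adjusted p = 0.27) and −0.71 ± 0.22 in Vwf/Fmo2 ECs (adjusted p = 0.104; without control library 2, −1.01 with adjusted p = 0.0217), where 0.449% and 2.27% of genes were called. In arterial and capillary ECs 1.86% and 0.475% were.

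Outside the endothelium, Pdgfd fell in 3 main classes among members past the filter. In mural cells it was at 84.5, 79.7, 204 and 195 CPM, a fall by 1.27 ± 0.09 (edgeR adjusted p = 5.18e-07). Control levels of each subtype weighted by the mutants' mix of mural subtypes give 120 CPM of Pdgfd, where 199 CPM was measured in controls and 82.1 in mutants; the part of the mix was not tested. In the Myh11/Cnn1 mural cells it did not pass the test (−0.15 ± 0.10, adjusted p = 0.33), and in the Rgs5/Kcnj8 cells, where it lay below the filter, the unfiltered fit gave −1.54 ± 0.32 (adjusted p = 3.85e-05), in cells whose endothelial markers (75.8, 72.8, 217 and 125 CPM, 0 to 2 of 6 at 0) and reticular markers (608, 680, 2508 and 1451 CPM) also differed; their part was not tested. In reticular stromal cells it was at 95.3, 91.4, 161 and 152 CPM and fell by 0.68 ± 0.06 (adjusted p = 7.56e-09). In osteoblasts it fell by 0.63 ± 0.07 (adjusted p = 8.48e-06), from 410 and 372 CPM in the controls to 243 and 265 CPM. The 3 calls held under every alternative run, with differences of −1.68 to −1.18, −0.96 to −0.52 and −0.72 to −0.52.

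Osteoblast markers were also lower in the mutant libraries: the 6 markers summed to 131 and 111 CPM in mutant against 429 and 415 CPM in control mural cells, with none at 0. If those markers came from osteoblast RNA, that RNA would bring at most 1.23 CPM of Pdgfd into a mural sum and 2.68 CPM into a reticular sum, taking the osteoblast profile as fixed; the part of such RNA in the difference was not tested. In chondrocytes Pdgfd lay below the filter at 5.29, 5.23, 16.5 and 9.65 CPM (−1.27 ± 0.22 in the unfiltered fit, adjusted p = 0.00455, where 21.8% of genes were called), and osteoblast markers there would bring 2.61, 2.66, 5.86 and 4.28 CPM. Pdgfra, also below the filter there, was at 19.1, 22.2, 13.7 and 14.5 CPM (0.60 ± 0.09 unfiltered, adjusted p = 0.00257).

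For Pdgfa the direction differed by cell type. In chondrocytes it rose by 0.84 ± 0.07 (edgeR adjusted p = 6.1e-10), from 23.2 and 25.2 CPM in controls to 39.6 and 42.4 CPM in mutants. The study reports an expansion of hypertrophic chondrocytes in the mutants. Chondrocytes were fitted as 1 class here, and the part of their mix in the difference of any member was not tested. Mural markers in chondrocytes (233, 270, 346 and 321 CPM) would bring 6.76, 6.51, 4.7 and 4.98 CPM of Pdgfa. This estimate is scaled to the sum of the same markers in mural cells (11400, 11400, 22600 and 23400 CPM). That sum was lower in the mutants, which raises the mutant estimates. Pdgfa passed the filter in chondrocytes through the mutants only (a UMI in 22.71% of mutant and 19.98% of control cells), and the unfiltered edgeR fit gave 0.80 (adjusted p = 0.000122). In the Myh11/Cnn1 mural cells, where 19.8% of genes were called, it rose by 0.41 ± 0.09 (adjusted p = 0.00205) from 338 and 376 CPM to 497 and 452 CPM; without mutant library 1 the difference was 0.34 (adjusted p = 0.112). Over all mural cells it did not pass the test (−0.14 ± 0.11, adjusted p = 0.313). Osteoblasts and fibroblasts gave 0.26 ± 0.09 (edgeR adjusted p = 0.0603) and 0.47 ± 0.14 (adjusted p = 0.0826), neither of which was called. Pdgfc did not pass the test in its 2 main sources, with −0.06 ± 0.10 in osteoblasts (adjusted p = 0.743) and −0.21 ± 0.12 in fibroblasts (adjusted p = 0.342).

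**Figure D2:**
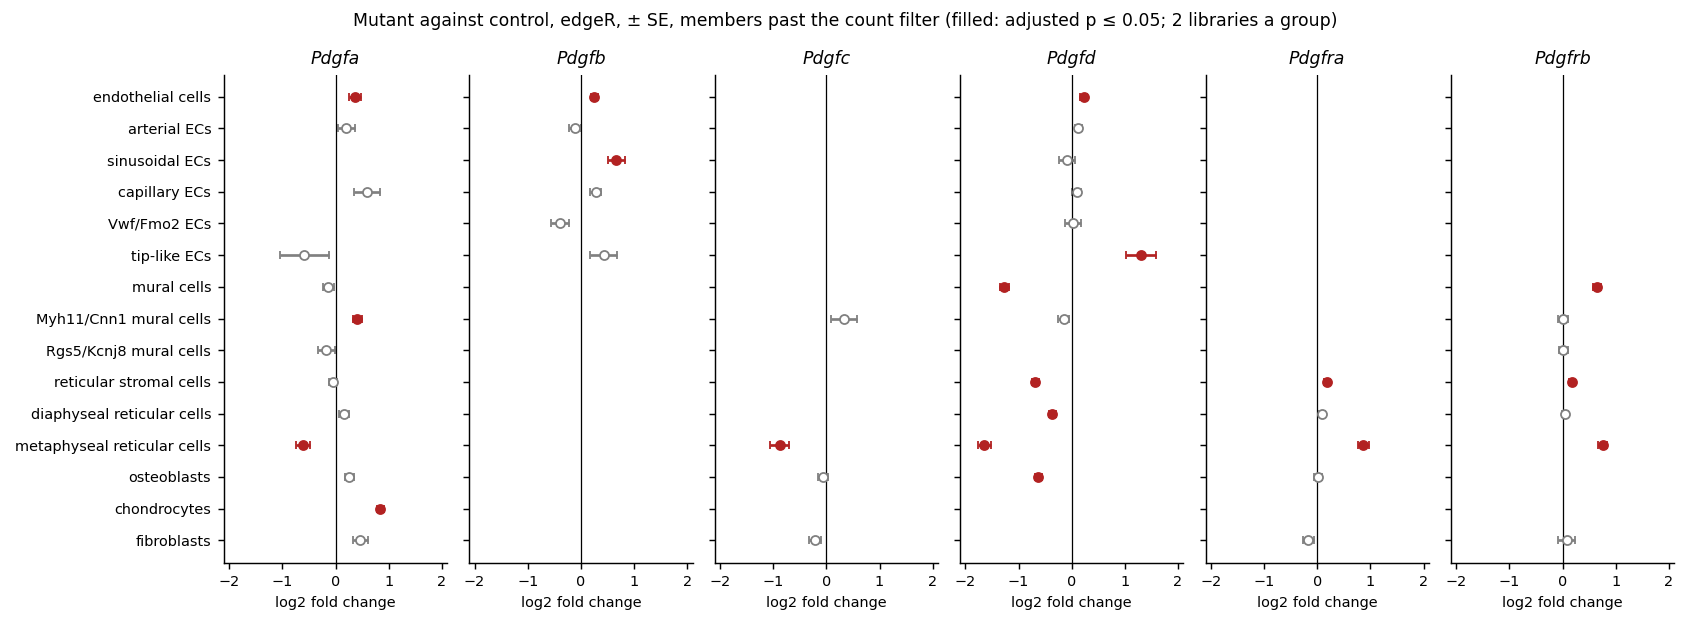
Log2 fold change of each member, mutant against control (x axis, ± SE), in 15 cell classes (rows) for members past the count filter; filled red points have an edgeR adjusted p of 0.05 or less, open points do not. Pdgfd lies left of 0 in mural cells (−1.27), reticular cells and osteoblasts and right of 0 in tip-like ECs (1.30), and metaphyseal reticular cells show both receptors right and the 3 ligands left of 0.

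The study proposes that Myh11-negative cells, enriched in its mutant smooth muscle cluster, are likely myofibroblasts. How far the mural gate used here holds such cells was not tested. In the cells of this gate Pdgfrb rose by 0.65 ± 0.07 (edgeR adjusted p = 1.34e-05), and the call held under every alternative run (0.54 to 0.74). It did not pass the test in either mural subtype. The mural cells marked by Myh11 and Cnn1, contractile smooth muscle genes, held 298, 279, 282 and 291 CPM (0.02 ± 0.09, adjusted p = 0.938). The mural cells marked by Rgs5, Kcnj8 and Abcc9, genes of pericytes, held 1014, 1042, 1109 and 1078 CPM (0.02 ± 0.09, adjusted p = 0.897). The proportion of the subtypes differed between genotypes: Rgs5/Kcnj8 cells made up 49.4% and 52% of mural cells in the mutants against 25.5% and 24.4% in the controls. Control levels of each subtype weighted by the mutants' mix give 767 CPM of Pdgfrb, where 770.5 CPM was measured in mutants and 497 in controls; the part of the mix was not tested.

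The Rgs5/Kcnj8 cells are called by their gate here and not by a cell type, because the genes that led them by fold included the endothelial genes Tie1 and Emcn and interferon-induced genes. The 6 endothelial markers summed to 75.8, 72.8, 217 and 125 CPM in them, against a lowest sum of 5570 CPM in ECs. Pdgfb, at 11.5, 5.50, 25.9 and 29.6 CPM in these cells, moved with those markers, which would bring 3.33, 3.02, 7.74 and 4.36 CPM with them; what part they have in it was not tested. The 9 mural markers were lower in the mutant Rgs5/Kcnj8 cells, at 7759 and 8677 CPM against 23430 and 23980 CPM. Pdgfd in the same cells was at 9.85, 16.5, 35.3 and 61.7 CPM, below the filter. It too moved with the endothelial markers, at whose levels EC RNA would bring 8.35, 7.25, 19.2 and 11 CPM of Pdgfd, and with the reticular markers (608, 680, 2508 and 1451 CPM, none at 0); their part was not tested. The unfiltered fit gave −1.47 ± 0.41 for Pdgfb in these cells (edgeR adjusted p = 0.00454) and −0.87 ± 0.22 over all mural cells (adjusted p = 0.00102).

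Pdgfra, nearly absent from control mural cells, was detected in a minority of mutant ones. The mural sums held 113 and 167 UMIs of Pdgfra in the mutants against 5 and 7 in the controls, or 32.3, 39.8, 3.11 and 4.14 CPM. Cells with a UMI made up 10.2% and 12.2% of mutant and 1.8% and 2.09% of control mural cells, under the filter of 20% of cells. The unfiltered edgeR fit gave 3.40 ± 0.30 (adjusted p = 1.25e-27), with 16.5% of genes called. The rise was present within Rgs5/Kcnj8 mural cells at 34.5, 32.2, 4.71 and 4.94 CPM (3.04 ± 0.52 unfiltered, edgeR adjusted p = 1.3e-07, 12.1% of genes called), where 35.3% of filtered genes were called. Myh11/Cnn1 cells held 0, 9, 3 and 5 UMIs and gave 0.15 ± 0.72 (unfiltered, adjusted p = 0.95). The difference between the 2 subtypes was not tested for Pdgfra.

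The highest Pdgfra level in the mural gate was in cells that met neither subtype gate, which numbered 65 and 67 in the mutants and 9 and 8 in the controls and were led by Mmp9, Cemip and Tnfsf11, which are not among the mural markers. The 9 mural markers summed to 5367, 3965, 21470 and 23620 CPM in them, with at most 1 at 0, and the part of this drop in the Pdgfra values was not tested. They held 94.98 and 150.0 CPM in the mutants and 0 UMIs in the controls, which allows up to 75.4 and 81.2 CPM (3 counts a library, counting error only), and were not tested because of the low control number. Reticular markers summed to 608, 680, 2510 and 1450 CPM in the Rgs5/Kcnj8 cells, where reticular RNA at those levels would bring 9.76, 11.1, 30.2 and 17.0 CPM of Pdgfra, above the level measured in the controls. Its part in the Pdgfra values was not tested.

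**Figure D3:**
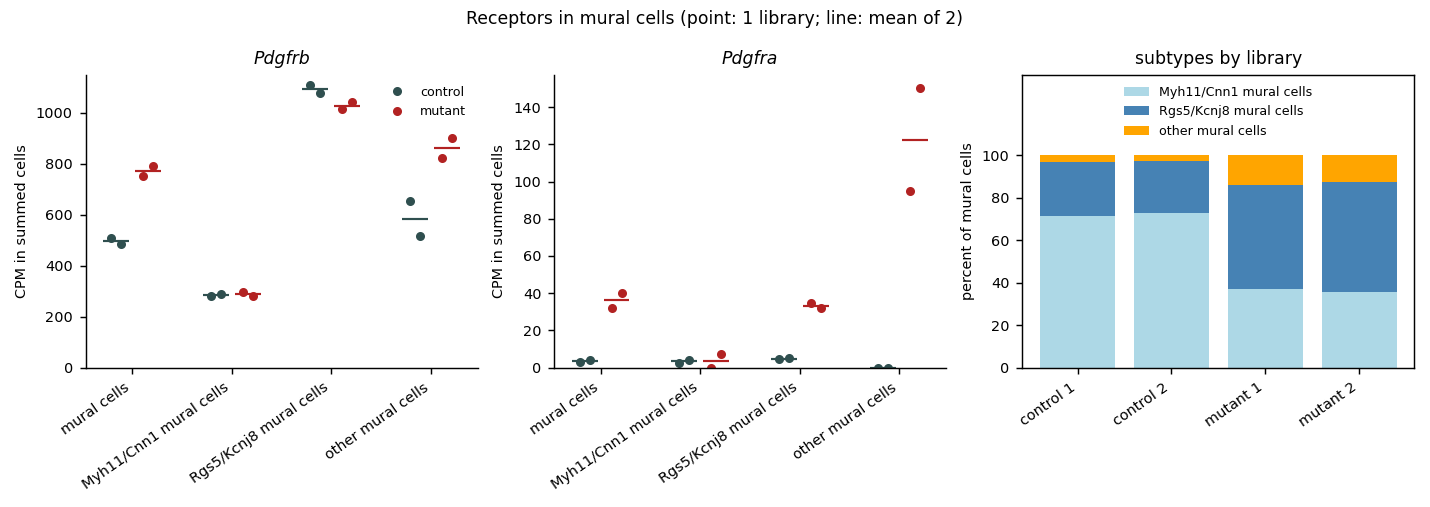
Pdgfrb and Pdgfra (CPM, y axes from 0) in all mural cells and their subtypes by library, and the percentage of mural cells in each subtype. Pdgfrb is level within both named subtypes (about 290 and 1060 CPM) while the share of Rgs5/Kcnj8 cells is larger in the mutants (49.4% and 52% against 25.5% and 24.4%), and Pdgfra is seen in mutant Rgs5/Kcnj8 and other mural cells.

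In reticular stromal cells as 1 class, both receptors were slightly higher in the mutants. Pdgfra differed by 0.18 ± 0.05 (edgeR adjusted p = 0.0096) and Pdgfrb by 0.17 ± 0.05 (adjusted p = 0.0115). These calls were not stable to the library set: without control library 2 they were 0.14 (adjusted p = 0.11) and 0.15 (0.095), and without mutant library 2 Pdgfrb was 0.12 (0.123). Without the gene filter both lost the call (adjusted p = 0.338 and 0.397).

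The larger rise was in the metaphyseal reticular cells, the osteogenic subtype gated on Postn, Wif1, Limch1, Alpl and Sp7, in which 25.8% of genes were called. There Pdgfra rose by 0.87 ± 0.10 (edgeR adjusted p = 8.52e-10), from 148 and 137.6 CPM in the controls to 239.8 and 262 CPM in the mutants. Pdgfrb rose by 0.76 ± 0.09 (adjusted p = 6.46e-10), from 352 and 338 CPM to 573 and 557 CPM. Both calls held under every alternative run (0.68 to 0.92 and 0.47 to 0.88). In the same cells 3 ligands fell. Pdgfd fell by 1.65 ± 0.12 (adjusted p = 1.36e-15), from 203.7 and 204.3 CPM to 64.3 and 61.9 CPM, and the call held under every alternative run. Pdgfa fell by 0.61 ± 0.13 (adjusted p = 0.000205), from 127 and 111 to 70.6 and 79.5 CPM, and Pdgfc fell by 0.88 ± 0.18 (adjusted p = 0.000104), from 65.6 and 60.7 to 31.7 and 34.5 CPM. Pdgfd and Pdgfc passed the filter through the controls only (a UMI in 53.95% and 28.53% of control against 16.01% and 14.5% of mutant cells); the unfiltered fit gave −1.71 and −0.93, both called. The calls of Pdgfa and Pdgfc were lost when cells were gated singly, at −0.34 (adjusted p = 0.185) and −0.15 (adjusted p = 0.754).

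The diaphyseal reticular cells, the adipogenic subtype gated on Adipoq, Esm1, Lepr, Cxcl12 and Kitl, differed less. There 39.5% of genes were called, yet Pdgfra stood at 370.5, 370.2, 370.1 and 354 CPM (0.09 ± 0.06, edgeR adjusted p = 0.224) and Pdgfrb at 575, 639.5, 622 and 606 CPM (0.04 ± 0.06, adjusted p = 0.599), the latter overlapping between groups. Pdgfd fell there by 0.37 ± 0.07 (adjusted p = 0.00139), a call lost without the gene filter (adjusted p = 0.0839). The difference between the 2 subtypes in their genotype effect, diaphyseal minus metaphyseal (a test added after the levels were seen), was −0.78 ± 0.10 for Pdgfra, −0.72 ± 0.09 for Pdgfrb, 1.27 ± 0.13 for Pdgfd and 0.75 ± 0.17 for Pdgfa (largest adjusted p = 0.00634, edgeR), these 4 called beside 10.1% of genes. For Pdgfc it was 0.87 ± 0.46 (adjusted p = 0.309).

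The 6 osteoblast markers in metaphyseal reticular cells summed to 803, 694, 2300 and 2540 CPM, none at 0, and moved with the ligands. So did the 9 reticular markers, at 4783, 4573, 10140 and 9463 CPM, none at 0; their part was not tested. Osteoblast RNA at those levels would bring at most 6.66 CPM of Pdgfd, 1.67 CPM of Pdgfa and 1.72 CPM of Pdgfc. The 9 mural markers, at most 1 of which was at 0 in a library, summed to 652, 741, 407 and 420 CPM and moved with the receptors, and would bring 42.9, 51.4, 9.18 and 8.69 CPM of Pdgfrb. This estimate is scaled to the sum of the same markers in mural cells (11400, 11400, 22600 and 23400 CPM), whose lower mutant values raise the mutant estimates. How far cells moved into or out of this gate with genotype was not tested.

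**Figure D4:**
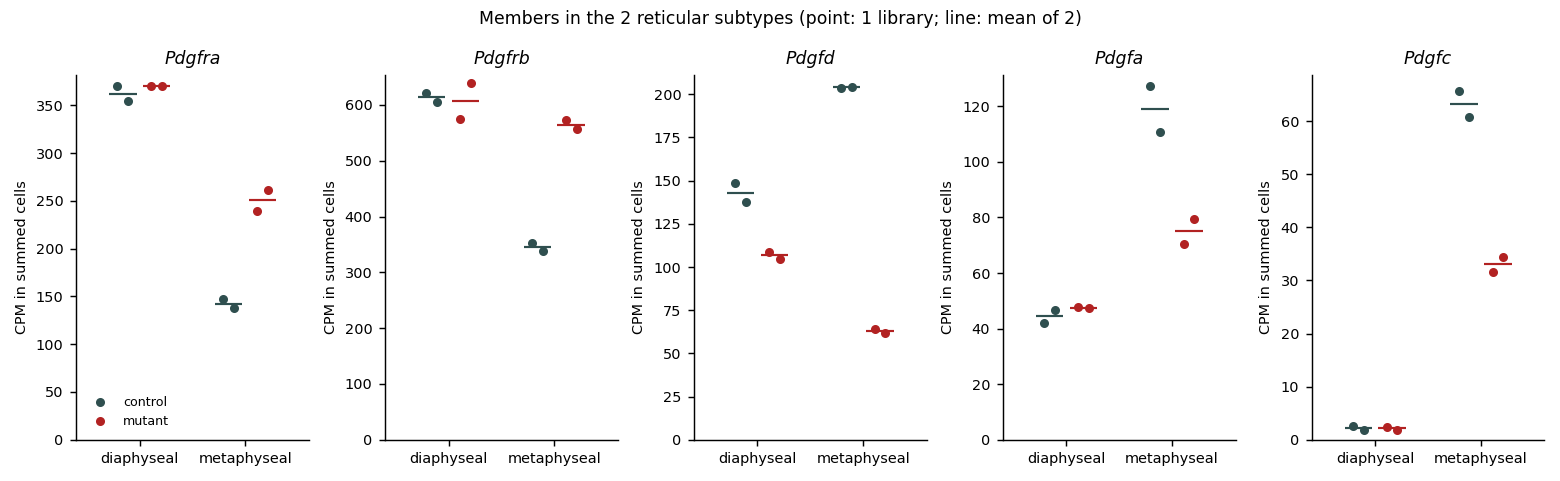
Level (CPM, y axes from 0) of both receptors and 3 ligands in diaphyseal and metaphyseal reticular cells by library, dark for control and red for mutant. In metaphyseal cells the mutants are higher for Pdgfra and Pdgfrb and lower for Pdgfd (64.3 and 61.9 against 203.7 and 204.3 CPM), Pdgfa and Pdgfc, while in diaphyseal cells the 2 receptors lie close together.

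In fibroblasts neither receptor passed the test. Pdgfra differed by −0.17 ± 0.11 (edgeR adjusted p = 0.392) and Pdgfrb by 0.08 ± 0.16 (adjusted p = 0.829), the latter with overlap between groups. Over whole classes, the effect on Pdgfrb was larger in mural cells than in reticular cells by 0.52 ± 0.12 (edgeR adjusted p = 0.00433, 25.7% of genes called) and than in fibroblasts by 0.56 ± 0.16 (adjusted p = 0.0214, 19.6% called). Reticular cells and fibroblasts did not differ in it by the test (0.04 ± 0.15, adjusted p = 0.936, 4.7% called). By subtype, Pdgfrb differed by 0.02 ± 0.09 in Myh11/Cnn1 and in Rgs5/Kcnj8 mural cells and by 0.76 ± 0.09 in metaphyseal reticular cells. The part of the mix of mural subtypes was not tested. In a test added after the levels were seen, the 2 mural subtypes differed in the effect on Pdgfa by 0.56 and on Pdgfd by 1.55, where 18.3% of genes were called. Pdgfd lay below the filter in the Rgs5/Kcnj8 cells and passed it in the Myh11/Cnn1 cells. In osteoblasts Pdgfra was close between genotypes (0.02 ± 0.08, adjusted p = 0.904).

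Shares of cells were compared after thinning each cell to 2000 UMIs. Pdgfb was then seen in 34.7%, 31.6%, 29% and 31.9% of ECs, beside 0%, 0%, 0.195% and 0.15% of reticular cells, a class not known for it, where the 0 counts allow shares of up to 0.45% and 0.369%. The unthinned shares in ECs were 65%, 62.3%, 55.6% and 56.8%, at median depths of 6730, 6490, 5470 and 5300 UMIs, and mutant ECs were thus the deeper ones. Thinned shares of Pdgfa in ECs were 8.52%, 6.3%, 6.94% and 7.85%, with the groups overlapping. Thinned shares of Pdgfd in ECs were 48.9%, 47.8%, 48.9% and 47.9%. Pdgfrb was seen in 65.3%, 67.4%, 54.8% and 53% of thinned mural cells.

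Cells with a UMI of both receptors after thinning made up 30%, 29.5%, 31.5% and 30.2% of reticular cells, close to the 30.6%, 29.8%, 29.9% and 29% that the 2 single shares multiply to. In metaphyseal reticular cells they made up 25.7%, 22.2%, 12.5% and 9.97%, beside 24%, 20.6%, 11.5% and 10.4% from the single shares. In Rgs5/Kcnj8 mural cells they made up 4.41% and 3.25% in the mutants, beside 3.97% and 3.18% from the single shares, and 0 of 70 and 0 of 68 cells in the controls, which allows shares of up to 4.29% and 4.41%. In osteoblasts, which held Pdgfra without much Pdgfrb, the share with both was 1.29% to 1.74%.

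The genes whose log level ran most like each member's, over the 52 points given by 13 classes in 4 libraries, are given as a description. For Pdgfb they were Rapgef5, Esam and Cd93 (Pearson r = 0.948, 0.947 and 0.940), of which Esam and Cd93 are endothelial surface proteins. For Pdgfa they were Akap6, Hspb2 and Des (0.871, 0.869 and 0.857), the last encoding the muscle filament desmin. For Pdgfrb they were Pla2r1, 1500009L16Rik and Naalad2 (0.960, 0.952 and 0.951), and for Pdgfra Itga11, a collagen receptor subunit, Cpxm1 and Ptgfrn (0.911, 0.895 and 0.890). Pdgfc and Pdgfd, each with several sources, had weaker likenesses, led by Adgrd1 (0.835) and Lrch1 (0.780). Points of 1 library share its depth, and no test was made.

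Genes around the PDGF receptors were read from 4 lists: processing and retention of ligands, receptor-proximal signalling, negative regulators and immediate early genes, the transcription factors and response genes that growth factor receptors switch on within minutes and that tissue digestion is known to induce as well. In ECs 31 of the 49 genes tested were called (63.3%, beside 61.2% of all genes), in mural cells 28 of 47 (59.6%, beside 47.4%) and in reticular stromal cells 24 of 46 (52.2%, beside 48.4%), so the lists as a whole lay near the background in ECs and reticular cells.

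The immediate early genes were higher in most classes. All 7 that passed the filter (of 10) rose in ECs, mural cells and reticular stromal cells, beside 30.5%, 23.7% and 24.8% of all genes tested there. In ECs their median difference was 0.82 (all genes tested, 0.00), led by Ier3 (1.57 ± 0.06), Fos (1.16 ± 0.05) and Junb (0.97 ± 0.05). Ier3, an early response gene, was at 478, 470, 164 and 170 CPM. By EC subtype, 7 of 7 rose in arterial, capillary and Vwf/Fmo2 ECs and 7 of 8 in sinusoidal ECs. In tip-like ECs, with 22 and 15 control cells, 0 of 7 were called and the median was 0.00. Of all genes tested in these subtypes 26.7%, 33%, 7%, 19.3% and 3.87% were called. In mural cells Ier3 (1.36 ± 0.10), Junb and Ier2 led, with a median of 0.60, and in reticular cells Ier3 (1.92 ± 0.08), Fos (1.52 ± 0.05) and Ier2 led, with a median of 1.17. Within mural cells all 7 rose in both subtypes, beside 10.2% of all genes in Myh11/Cnn1 and 17.1% in Rgs5/Kcnj8 cells. The same list rose by 7 of 7 in osteoblasts, 7 of 8 in chondrocytes and 1 of 7 in fibroblasts, beside 8.06%, 32.5% and 3.09% of all genes called higher, and the part of dissociation in it was not tested.

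Negative regulators of receptor signalling went in different directions. In mural cells 7 of 13 rose and 1 fell, beside 23.7% of all genes called in each direction. Dusp6, the phosphatase that switches off ERK, led at 45.4, 48.9, 6.84 and 7.10 CPM (2.77 ± 0.21, edgeR adjusted p = 8.17e-07), followed by Spry1 (1.66 ± 0.12), a feedback inhibitor of receptor tyrosine kinases, and the ubiquitin ligase gene Cblb (1.32 ± 0.13). The Rgs5/Kcnj8 cells by themselves gave 6 called higher and 1 lower of 14, beside 17.1% and 18.2% of all genes, with Dusp6 at 1.94 ± 0.31. In the Myh11/Cnn1 cells Cblb did not pass the test (0.10 ± 0.20, adjusted p = 0.791). In ECs 3 rose and 7 fell of 13, beside 30.7% called lower over all genes; Socs3, a cytokine signalling inhibitor, rose by 1.27 ± 0.08, Errfi1, an inhibitor of EGF receptor family kinases, rose by 0.93 ± 0.14, and Cblb fell by 0.91 ± 0.07. In reticular cells 3 rose and 2 fell of 12, beside 23.7% called lower, led by Socs3 (0.52 ± 0.07), Errfi1 and Spry1.

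Among genes that process or retain the ligands, ECs gave 2 higher and 3 lower of 10, beside 30.5% and 30.7% of all genes. Pcsk5, a convertase gene, fell by 0.74 ± 0.07, Nrp1, a co-receptor gene, fell by 0.72 ± 0.06, and Ndst1, of heparan sulfate synthesis, fell by 0.65 ± 0.07. In mural cells 4 rose and 2 fell of 10, beside 23.7% of all genes in each direction, led by Plat, the tissue plasminogen activator (55.9, 67.3, 16.2 and 23.1 CPM, 1.66 ± 0.19), Lrp1 (1.14 ± 0.10), an endocytic receptor that binds PDGFRβ, and Sparc (0.67 ± 0.06), a matrix protein that binds PDGF-B. Within the Myh11/Cnn1 mural cells Sparc fell by 0.27 ± 0.08 (edgeR adjusted p = 0.0224) and Lrp1 did not pass the test (0.07 ± 0.16, adjusted p = 0.83), whereas within the Rgs5/Kcnj8 cells Lrp1 rose by 0.75 ± 0.13 and Plat by 1.90 ± 0.28, and Sparc did not pass (0.15 ± 0.07, adjusted p = 0.122). In reticular cells 4 rose and none of the 10 was called lower (edgeR), beside 24.8% and 23.7%, led by Lrp1 (0.46 ± 0.05), Furin (0.39 ± 0.08) and Hspg2 (0.33 ± 0.06).

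The receptor-proximal adaptors and kinases were called in both directions: 9 of 19 in ECs, 7 of 17 in mural cells and 8 of 17 in reticular cells, beside 61.2%, 47.4% and 48.4% of all genes. In ECs 2 rose and 7 fell of 19, led by Pik3r1 (−0.67 ± 0.07), the PI3-kinase subunit that binds activated PDGF receptors, Plcg1 (−0.60 ± 0.08) and Stat5b (−0.55 ± 0.07). In mural cells 4 rose and 3 fell of 17, led by Stat5b (−0.99 ± 0.13), Shc1 (0.77 ± 0.16) and Mapk3 (0.66 ± 0.13), of which Mapk3 passed the test in neither subtype, and in reticular cells 3 rose and 5 fell of 17, led by Gab1 (−0.43 ± 0.06), Pik3r1 (−0.39 ± 0.05) and Stat5b (−0.38 ± 0.06). The median over the list was −0.13, 0.00 and 0.00 in the 3 classes.

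**Figure D5:**
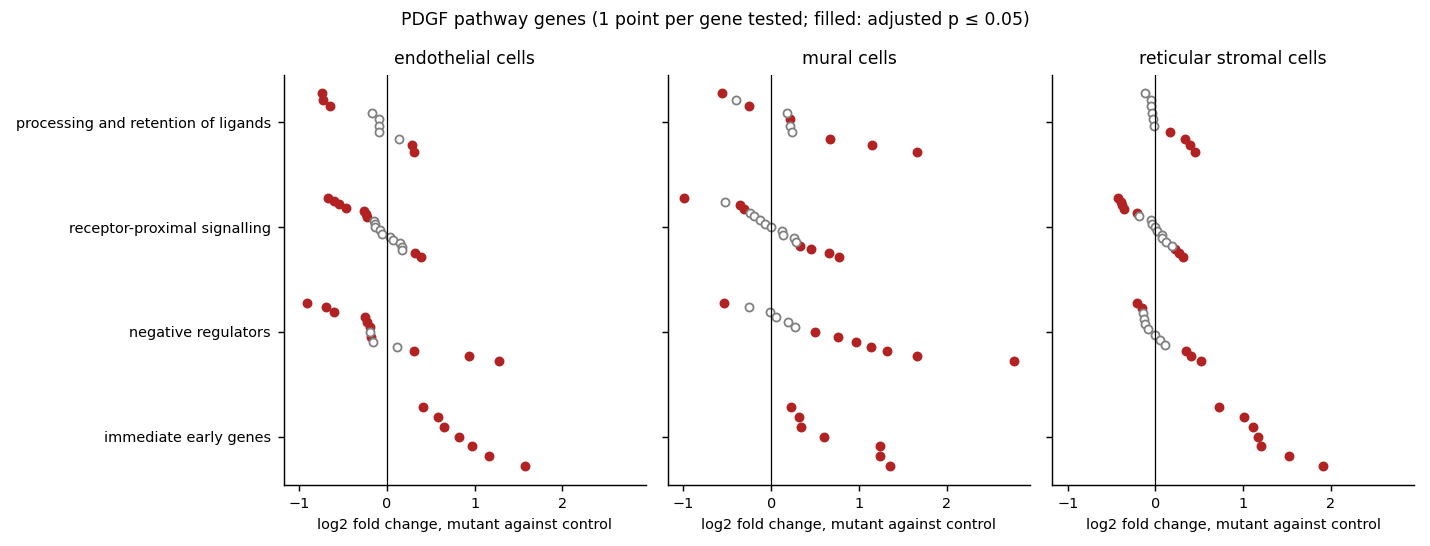
Log2 fold change, mutant against control (x axis), of each gene tested in 4 PDGF pathway lists (rows) in endothelial, mural and reticular stromal cells; filled red points have an edgeR adjusted p of 0.05 or less. All 7 immediate early genes lie right of 0 in each class, while the other lists spread to both sides.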

How the data were processed

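The members and gene lists were chosen with earlier results of these data known. The authors trimmed 10x 3′ reads with cutadapt 3.5 and counted UMIs with STARsolo 2.7.10a over whole genes, sharing multi-mapped reads by expectation maximization (GRCm39, GENCODE M26, with transgene sequences added); the deposited values are expected counts, which need not be whole. Here barcodes with at least 1000 UMIs and 800 genes, at most 15% mitochondrial and 5% hemoglobin counts and a complexity of at least 0.8 were kept. Cells were assigned by marker scores averaged over 15 neighbours, which matched clusters for 98.5% of 19396 cells, those in unnamed clusters left out. Unnamed clusters held 486 of 845 gated fibroblasts, 646 of 7912 chondrocytes, 281 of 5753 reticular cells and 147 of 1924 osteoblasts. Only 330 gated fibroblasts lay in fibroblast clusters. Of the other cells, 1115 scored low, 512 had mixed markers and 2228 were other types. Doublets (1250 called) were kept in the main fits and removed in an alternative.

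Counts were summed per library and class, rounded, and fitted with edgeR 4.0.16 (TMM, quasi-likelihood, R 4.3.3) over genes detected in 20% or more of the cells of 1 genotype or the other, with Benjamini-Hochberg adjustment; classes needed 10 cells per library. Values described as below the filter come from a fit without it. Levels between neighbouring classes were fitted with library as a block. Alternatives were DESeq2 1.42.0, its size factors, no gene filter, clusters in place of the gate, doublets removed, stricter cells, free RNA subtracted, a replicate block and each library left out. Gating without neighbours, and the tests between the 2 reticular and the 2 mural subtypes, were added after seeing the data. Upper limits for a count of 0 rest on 3 counts and cover counting error only. P-values of the class fits measure the spread between libraries, which edgeR shares across genes. The level tests and the tests of a difference between classes fit library as a block. Their p-values measure the spread left after library is taken out. Likeness is Pearson r of log2(CPM + 1) over library by class sums, naming the 3 genes of highest r per member, and pathway genes named are the 3 called genes of largest change per list and class. The genes that lead a gated class were named after their values were seen. Whether 1 mouse or a pool made each library is not given in the sources used here. The edgeR fit was first run on counts simulated for ECs, with a fixed spread and far fewer changed genes than were called in the data. That run does not show how the calls hold under the conditions of these libraries.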

Additional observations from a re-analysis of the deposited data

Results flagged for a closer look

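Of 39 tests of members, the genotype effect differed between cell groups in 13 by a direct edgeR test of the difference, beside 0.449% to 25.7% of all genes called in those comparisons (log2 scale, adjusted p of 0.05 or less). For Pdgfd it was 1.27 higher in tip-like ECs than in the mean of the other EC subtypes, 1.27 higher in diaphyseal than in metaphyseal reticular cells, 1.55 higher in Myh11/Cnn1 than in Rgs5/Kcnj8 mural cells, and, for mural minus reticular cells, −0.54. The tip-like value rests on 22 and 15 control cells. Pdgfd lay below the filter in Rgs5/Kcnj8 cells, where endothelial and reticular markers moved with it, and their part was not tested. In Myh11/Cnn1 cells, where it passed the filter, it differed by −0.15 ± 0.10 (edgeR adjusted p = 0.33). The mix of mural subtypes also differed between genotypes; control levels weighted by the mutant mix give 120 CPM for Pdgfd (199 in controls) and 767 CPM for Pdgfrb (497 in controls), and the part of the mix in these differences was not tested. For Pdgfra it was 3.18 for mural minus reticular cells and 3.47 for mural cells minus fibroblasts, both resting on 5 and 7 control UMIs of a gene below the filter in mural cells and past it in reticular cells and fibroblasts, and −0.78 for diaphyseal minus metaphyseal reticular cells. For Pdgfrb the same differences were 0.52, 0.56 and −0.72. For Pdgfa it was −0.62 for mural cells minus fibroblasts, 0.75 for diaphyseal minus metaphyseal reticular cells and 0.56 for Myh11/Cnn1 minus Rgs5/Kcnj8 mural cells. The tests between the reticular subtypes and between the mural subtypes, counted among the 39, were added after the levels were seen.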

How the results depend on the processing

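Of the 146 alternative values for the main results, 132 kept direction and call. DESeq2 gave Pdgfa in ECs 0.37 (adjusted p = 0.0702). Without the gene filter Pdgfra and Pdgfrb in reticular cells gave 0.10 and 0.094, Pdgfra with clusters in place of the gate gave 0.13, and Pdgfrb gated without neighbours gave 0.12; these calls were lost and the cause was not tested. Leaving out 1 library gave ranges of 0.24 to 0.51 for Pdgfa, 0.22 to 0.29 for Pdgfb and 0.15 to 0.30 for Pdgfd in ECs, and of 0.14 to 0.21 for Pdgfra and 0.12 to 0.22 for Pdgfrb in reticular cells. The calls in ECs were lost without mutant 1 (adjusted p = 0.115, 0.0701 and 0.0955, edgeR), those in reticular cells without control 2 (0.11 and 0.095), and that of Pdgfrb also without mutant 2 (0.123). Thinning to 5000 in place of 2000 UMIs turned the mutant minus control share from −0.05 to 3.25 percentage points for Pdgfd in ECs and from 1.65 to −1.05 for Pdgfra in reticular cells, and moved that of Pdgfrb in mural cells from 12.45 to 10.35.

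By their labels, same-numbered libraries shared only a number. Their correlations were 0.118 in ECs and −0.0104 to 0.0149 in the other main classes. Whether same-numbered libraries shared a batch was not tested. With the replicate block Pdgfb, Pdgfa and Pdgfd in ECs gave 0.25, 0.37 and 0.22, Pdgfrb in mural cells 0.65, and Pdgfra and Pdgfrb in reticular cells 0.18 and 0.17, all called; Pdgfa was then also called in capillary ECs (0.60, past the filter through the mutants only, with a UMI in 22.46% of mutant and 17.2% of control cells) and osteoblasts (0.26). Of 574 other values, 543 kept direction and call, 11 lost a call and 20 gained one. The stricter cell filter left too few control tip-like ECs for a fit.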

Other observations

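Among cells outside the main classes, Pdgfa was high in megakaryocytes, at 86.2, 185, 211 and 211 CPM in 16, 16, 61 and 45 cells, and in Schwann cells, at 287, 288, 105 and 195 CPM from 29, 33, 6 and 13 UMIs. Neither was tested. Free RNA was estimated at 1.63%, 2.89%, 44.6% and 24.8% of the megakaryocyte sums and at 2.44%, 3.02%, 2.19% and 35% of the Schwann cell sums. The same estimate reached 117% in control 1 erythroid cells and 102% in control 2 leukocytes, more than free RNA can make up. In blood cells it therefore cannot be read as a share of free RNA. Pdgfb in megakaryocytes stood at 10.8, 17.3, 20.6 and 12.0 CPM from 18 UMIs or fewer.

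Droplets with few UMIs held Pdgfd at 47.55, 54.7, 96.7 and 92.5 CPM and Pdgfb at 25.2, 27.6, 15.3 and 14.2 CPM (mutant 1, mutant 2, control 1 and control 2). Subtracting free RNA changed no call of either gene in ECs.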
